A study of Homo sapiens with 4 samples.

Results

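The kinesins are the motor proteins that walk along microtubules. They were taken from the deposited table as every protein-coding gene whose symbol is KIF followed by a number, with an optional letter and digit, or KIFC1 to KIFC3. This gave 42 of the 48162 listed genes, of which 20312 are protein-coding. By textbook function, 15 were sorted as mitotic motors, 15 as cargo-transport motors and 12 as others, which act in cilia, at growing microtubule ends or in a role that was not sorted. CENPE, a kinesin motor of the kinetochore, carries a symbol that the choice does not take, and it was listed with the partners of the mitotic kinesins. STARD9, a kinesin of the spindle poles, is likewise not taken by the choice, and it was not called (log2 fold change 0.09, adjusted p = 0.562 in limma).

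RNA was sequenced from MDA-MB-231 cells, an established human breast cancer line of mesenchymal character, in 2 libraries treated for 24 h with MGH-CP1 and 2 libraries given vehicle control. MGH-CP1 is a small molecule that blocks the palmitoylation of TEAD, the DNA-binding partner of the co-activators YAP and TAZ. The sample labels give its dose as 10 µM and the methods of the study as 10 mM. For cells treated with MGH-CP1 before inoculation into mice, the same methods give 10 µM. The cells of both groups carried no other treatment or allele in the labels, and the sources do not say whether replicates came from separate cultures, so p-values measure only the spread between these libraries. The deposited unit is FPKM, fragments scaled to gene length and to the fragments of the library, which allows levels to be compared between genes. The fragments behind the table numbered 25455533 and 25508824 for vehicle and were fewer, 17997221 and 17577930, for MGH-CP1. In each group the replicates differed by more than counting noise, with a chi-square per degree of freedom of 4.38 for vehicle and 3.16 for MGH-CP1.

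Kinesins hydrolyse ATP in a conserved motor domain to move along, slide or shorten microtubules. The mitotic members build the bipolar spindle, move chromosomes, trim microtubule ends and complete cytokinesis, and their transcripts are known to peak in G2 and M phase. The transport members carry vesicles, organelles and protein complexes throughout the cell cycle, most of them towards the plus ends of microtubules, with light chains or adaptor proteins linking them to cargo. Transcription of many late cell-cycle genes is known to act through a CCAAT box, bound by NF-Y, and a nearby CHR element, bound by MuvB complexes.

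After MGH-CP1 the 13 mitotic kinesins of the symbol choice that could be tested fell, while the transport kinesins moved in both directions or were not called. Of the 15 mitotic kinesins, 13 averaged 1 FPKM or more across the 4 libraries, the level required for testing, and 13 of these 13 were lower, with 0 higher, at an adjusted p under 0.05 in limma with Benjamini-Hochberg adjustment over 12080 genes. Across all genes tested, 23.8% were called lower and 27.1% higher. The median log2 fold change of the 13 mitotic kinesins was -0.80, with a range of -1.10 to -0.53, beside 0.01 for all genes tested. The median ratio of mean FPKM was 0.555. Of the 15 transport kinesins, 11 passed the filter, with 3 lower, 3 higher and 5 not called, which is near these all-gene shares. Their median log2 fold change was -0.04. All fold changes are of FPKM + 1 and understate the change of genes at low level. These are RNA measurements of a whole culture, in which fewer dividing cells and less kinesin RNA per cell cannot be told apart.

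In all 13 tested mitotic kinesins both MGH-CP1 libraries lay below both vehicle libraries, an order shown by 37.4% of all genes tested, while 39.8% showed the opposite order. Of the 11 transport kinesins, 5 were ordered downwards and 3 upwards, and 3 overlapped. With 2 libraries against 2, an exact permutation test of a single gene cannot go below p = 0.333, so every adjusted p here rests on the spread that limma shares across genes.

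**Figure D1:**
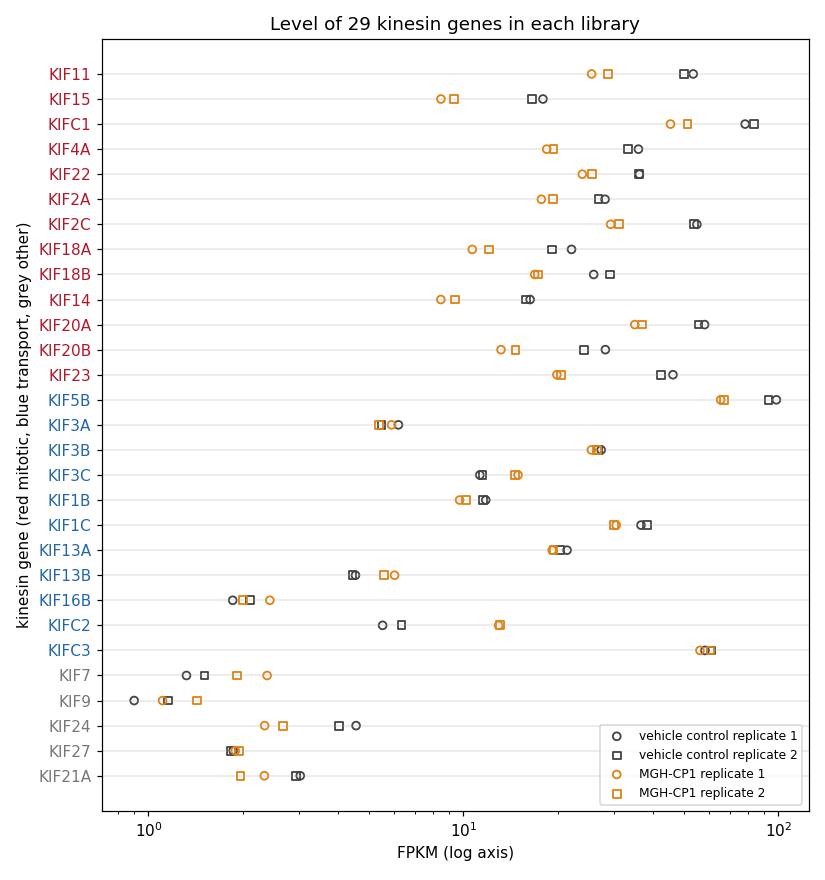
FPKM (log axis) of the 29 kinesins that passed the filter, 1 row per gene, with vehicle libraries in grey and MGH-CP1 libraries in orange, and replicates 1 and 2 as circles and squares. In the 13 mitotic rows the MGH-CP1 points lie left of the vehicle points, and in the transport rows they lie left, right or among them.

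The promoters of 5 members are shown as examples and not as a comparison of falling with rising genes. Of the mitotic kinesins, these are KIF23, which had the largest fall, and the spindle motors KIFC1 and KIF11. Of the transport motors, they are KIF5B, which fell, and KIF3C, which rose. KIF3C was the only transport kinesin called higher that had a RefSeq window, and several falling genes had no CHR, as given below. Each window runs from 250 bases before to 50 bases after the RefSeq start site, 5′ to 3′ on the strand of the gene, in GRCh38.p14. The windows are chr15:69414099-69414398 on the plus strand for KIF23, chr6:33391573-33391872 plus for KIFC1, chr10:92592880-92593179 plus for KIF11, chr10:32056376-32056675 minus for KIF5B and chr2:25982448-25982747 minus for KIF3C. Capitals mark the letters of a CHR (TTTGAA or TTCGAA) or a CCAAT box (CCAAT) on either strand, so that TTCAAA and ATTGG are the same letters read from the other strand.
KIF23: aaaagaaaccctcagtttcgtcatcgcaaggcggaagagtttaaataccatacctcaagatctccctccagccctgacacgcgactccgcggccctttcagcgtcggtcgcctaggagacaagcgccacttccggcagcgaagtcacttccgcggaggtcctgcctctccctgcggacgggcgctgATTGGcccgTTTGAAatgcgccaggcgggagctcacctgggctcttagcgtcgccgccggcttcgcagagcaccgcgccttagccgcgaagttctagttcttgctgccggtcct
KIFC1: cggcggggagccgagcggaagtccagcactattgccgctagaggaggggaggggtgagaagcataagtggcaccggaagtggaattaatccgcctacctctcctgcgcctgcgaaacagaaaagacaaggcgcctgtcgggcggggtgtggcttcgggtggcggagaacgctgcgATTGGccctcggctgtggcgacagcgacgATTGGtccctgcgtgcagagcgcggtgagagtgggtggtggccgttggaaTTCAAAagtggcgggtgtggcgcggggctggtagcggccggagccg
KIF11: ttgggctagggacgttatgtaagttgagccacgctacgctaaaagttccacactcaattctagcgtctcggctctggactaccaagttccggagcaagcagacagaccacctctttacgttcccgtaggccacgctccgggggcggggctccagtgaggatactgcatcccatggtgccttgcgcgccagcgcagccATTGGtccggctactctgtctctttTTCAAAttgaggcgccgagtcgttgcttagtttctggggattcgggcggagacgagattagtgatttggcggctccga
KIF5B: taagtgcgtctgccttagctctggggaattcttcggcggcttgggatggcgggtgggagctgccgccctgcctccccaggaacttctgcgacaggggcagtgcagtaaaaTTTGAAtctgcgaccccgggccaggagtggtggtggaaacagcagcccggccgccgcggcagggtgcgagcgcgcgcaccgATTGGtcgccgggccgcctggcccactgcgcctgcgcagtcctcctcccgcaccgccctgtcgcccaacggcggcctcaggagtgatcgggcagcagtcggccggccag
KIF3C: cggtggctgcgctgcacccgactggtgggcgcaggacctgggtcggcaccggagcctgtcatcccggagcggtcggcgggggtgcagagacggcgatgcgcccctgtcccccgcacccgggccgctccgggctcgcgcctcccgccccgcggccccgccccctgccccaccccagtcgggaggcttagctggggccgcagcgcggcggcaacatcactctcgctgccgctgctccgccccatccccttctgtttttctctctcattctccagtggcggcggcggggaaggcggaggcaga
The KIF23 window holds a CCAAT box at position -64 and a CHR at -55, counted in bases from the start site with negative positions before it. KIF11 has the pair at -53 and -28, and KIFC1 has CCAAT boxes at -75 and -46 and a CHR at 5. In KIF5B the CHR lies farther out, at -140, with a CCAAT box at -59. The KIF3C window has neither.

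RefSeq windows were at hand for 34 of the 42 kinesins and for 25 of the 29 that were tested. KIF27, KIF19, KIF26B, KIFC2, KIF21B, KIF5A, KIF13B and KIFC3 were not matched. CHR letters were present in 10 of the 13 tested mitotic kinesins, in 1 of 8 transport kinesins (KIF5B) and in 1 of 4 others (KIF24). Over all 35116 windows the share was 16.4%, and over the 8492 tested genes with a window it was 15.3%. The mitotic members without these letters were KIF2A, KIF2C and KIF20A. KIF1B and KIF1C of the transport kinesins and KIF21A of the others were also called lower and had no CHR letters. Of the kinesins called higher, KIFC2 and KIF13B had no window, and KIF3C and KIF7 had no CHR letters. The CHR letters of the mitotic genes lay between -55 (KIF23) and 31 (KIF20B), apart from the second window of KIF22, which has a start site farther downstream and repeats the same match at -244. A CCAAT box was found in 10 of 13 mitotic, 3 of 8 transport and 1 of 4 other kinesins, beside 34.6% of all windows and 43.6% of tested genes. Both motifs stood together in 9 of 13 mitotic kinesins, 1 of 8 transport kinesins and 1 of 4 others, beside 8.47% of tested genes.

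The core letters bound by TEAD, CATTCC on either strand, were in 2 of the 13 mitotic windows (KIF22 and KIF2C), 3 of 8 transport windows (KIF1B, KIF3A and KIF3B) and 0 of 4 others, beside 14% of all windows and 15.1% of tested genes. The TEAD core and the CCAAT box can share the letters CC where one follows the other, but no pair of matches shared letters in these 5 genes. A match describes the letters in the window and not a bound site, and the windows cover only the bases next to the start, so distal elements were not analysed here.

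**Figure D2:**
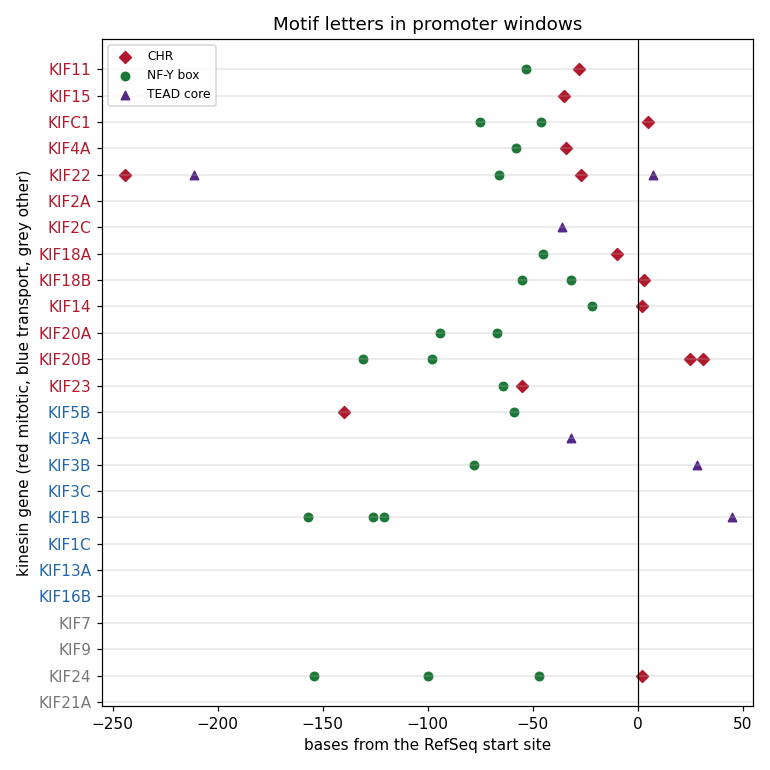
Position of the 3 motifs in the promoter windows of the tested kinesins, in bases from the RefSeq start site (0), with CHR as red diamonds, the NF-Y (CCAAT) box as green circles and the TEAD core as purple triangles. CHR marks appear in 10 of 13 mitotic rows, mostly next to the start site, and in 1 of 8 transport rows. Genes with more than 1 window have the marks of all their windows in 1 row.

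Among the motors that set up the spindle, KIF11 pushes antiparallel microtubules apart. Its level was 53.6 and 50.2 FPKM in the vehicle libraries and 25.5 and 28.8 FPKM in the MGH-CP1 libraries. Both treated libraries were well below both controls. The log2 fold change was -0.91 (SE 0.07, adjusted p = 4.63e-05, limma), a ratio of mean FPKM of 0.523. KIF15, which can share this work with KIF11, read 17.9 and 16.5 FPKM in vehicle and 8.48 and 9.33 FPKM in MGH-CP1, a log2 fold change of -0.88 (SE 0.07, adjusted p = 6.92e-05). KIFC1, the minus-end motor that bundles spindle poles, was the most abundant mitotic kinesin. It measured 78.4 and 83.4 FPKM in vehicle and 45.4 and 51.5 FPKM in MGH-CP1, a log2 fold change of -0.73 (SE 0.07, adjusted p = 1.06e-04). In all 3 genes the groups were separated, and the fall was larger than the spread between replicates. Both MGH-CP1 libraries lay below both vehicle libraries in 37.4% of all genes tested.

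Of the chromokinesins, which bind chromosome arms, KIF4A also shapes the central spindle. It stood at 35.9 and 33.2 FPKM in vehicle and 18.4 and 19.3 FPKM in MGH-CP1, with a log2 fold change of -0.84 (SE 0.06, adjusted p = 3.98e-05). KIF22 moved from 36.2 and 36.1 FPKM to 23.8 and 25.5 FPKM, which at -0.53 (SE 0.06, adjusted p = 1.76e-04) was the smallest mitotic change. KIF4B, a near copy of KIF4A, had 0 fragments in every library. KIF4A overlaps PDZD11 on the other strand, and KIF15 overlaps TMEM42 on the same strand over 3802 bases. The strand setting of the counting is not given in the sources used here, so reads in shared bases cannot be assigned.

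The kinesins that shorten microtubules or control their plus ends fell by different amounts. KIF2C, which corrects wrong attachments at centromeres, read 55.1 and 54.0 FPKM in vehicle and 29.3 and 31.2 FPKM in MGH-CP1, a log2 fold change of -0.83 (SE 0.05, adjusted p = 2.79e-05). KIF18A, which damps chromosome movement at the metaphase plate, read 22.0 and 19.1 FPKM against 10.7 and 12.1 FPKM, a log2 fold change of -0.80 (SE 0.09, adjusted p = 1.98e-04). Its relative KIF18B read 25.9 and 29.2 FPKM against 16.8 and 17.2 FPKM, a log2 fold change of -0.66 (SE 0.07, adjusted p = 1.69e-04). KIF2A, a depolymerase of spindle poles that also works in interphase cells and neurons, fell less. It had 28.2 and 26.8 FPKM in vehicle and 17.7 and 19.2 FPKM in MGH-CP1, a log2 fold change of -0.55 (SE 0.06, adjusted p = 2.53e-04). The 95% intervals of KIF2A (-0.69 to -0.41) and KIF2C (-0.95 to -0.71) did not overlap, although the difference between the genes was not tested. KIF2A shares 133278 bases of its locus with IPO11 on the same strand and 16686 bases with DIMT1 on the other strand. IPO11 had 734 to 1735 and DIMT1 744 to 1563 fragments in a library, beside 1069 to 2408 for KIF2A. Reads in these shared bases cannot be assigned either. KIF2B had 0 fragments in every library.

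The motors of cytokinesis included the largest fall of the family. KIF23, the motor subunit of centralspindlin (chr15:69706585-69740764 in the deposited coordinates, for which the submitters' processing notes name hg19), stood at 46.2 and 42.4 FPKM in vehicle and at 19.8 and 20.4 FPKM in MGH-CP1. The groups were far apart and the treated replicates nearly equal. Its log2 fold change was -1.10 (SE 0.06, 95% interval -1.24 to -0.96, adjusted p = 1.91e-05, limma), a ratio of 0.454, and only 13 of the 12080 genes tested had a lower value. KIF14, which recruits citron kinase to the midbody, read 16.3 and 15.8 FPKM against 8.48 and 9.42 FPKM, a log2 fold change of -0.78 (SE 0.07, adjusted p = 9.49e-05). KIF20A, which brings the chromosomal passenger complex to the central spindle, read 58.3 and 55.7 FPKM against 35.0 and 36.9 FPKM, a log2 fold change of -0.65 (SE 0.05, adjusted p = 6.42e-05). Its relative KIF20B read 28.2 and 24.1 FPKM against 13.2 and 14.6 FPKM, a log2 fold change of -0.86 (SE 0.09, adjusted p = 1.37e-04). None of these 4 genes had a treated library that reached a control library, an order shown by 37.4% of all genes tested.

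By role, the median log2 fold change was -0.88 for the 3 motors of spindle assembly, -0.69 for the 2 tested chromokinesins, -0.73 for the 4 tested depolymerases and plus-end motors and -0.82 for the 4 motors of cytokinesis. These medians lay closer together than the values within cytokinesis, which ran from -1.10 to -0.65. Medians vary less than single values, so this cannot tell whether the roles differ, which was not tested.

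**Figure D3:**
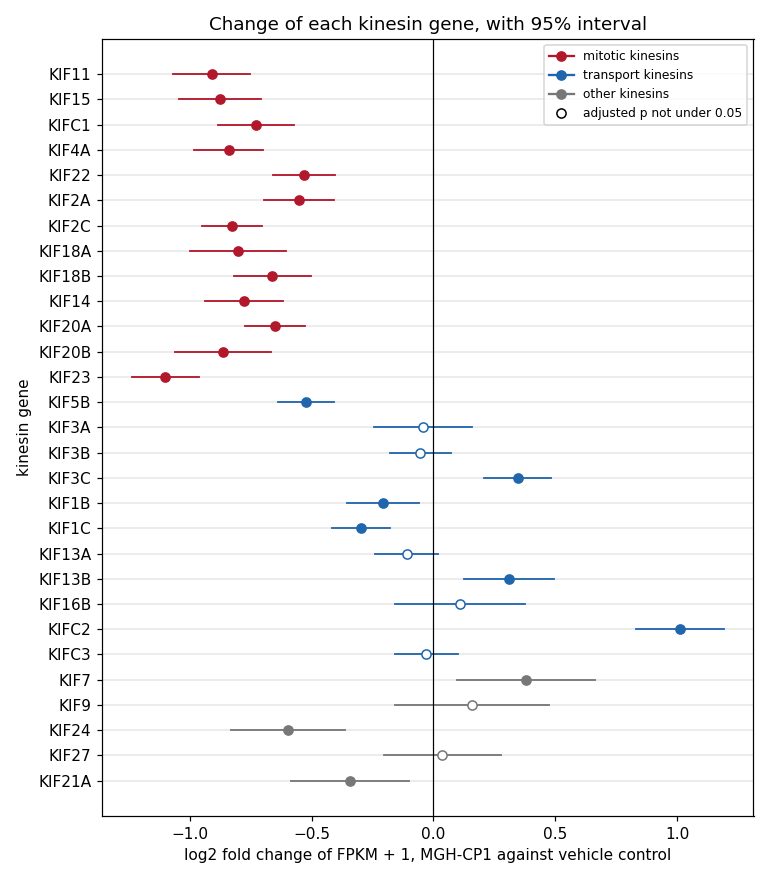
Log2 fold change of FPKM + 1 in MGH-CP1 against vehicle control for each of the 29 tested kinesins, with its 95% limma interval, in red for mitotic, blue for transport and grey for other kinesins, open where the adjusted p was not under 0.05. The 13 red points lie between -1.10 and -0.53, and the 11 blue points run from -0.52 (KIF5B) to 1.01 (KIFC2).

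The calls of the transport kinesins, 3 lower and 3 higher of 11 tested, were near the all-gene shares of 23.8% lower and 27.1% higher. The members are given here by family. KIF5B, the ubiquitous heavy chain of kinesin-1, was the most abundant kinesin in both groups. It read 98.5 and 92.9 FPKM in vehicle and 65.5 and 67.1 FPKM in MGH-CP1, with no overlap. Its log2 fold change of -0.52 (SE 0.05, adjusted p = 1.21e-04, limma) lay beside the smallest mitotic change. The neuronal heavy chains KIF5A and KIF5C were at or below 0.0170 FPKM in every library, so that KIF5B was the kinesin-1 heavy chain detected above the filter.

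In kinesin-2, the heterotrimeric motor of intraflagellar and vesicle transport, the obligate subunit KIF3A measured 6.22 and 5.50 FPKM in vehicle and 5.91 and 5.39 FPKM in MGH-CP1. These libraries overlapped, and the log2 fold change was -0.04 (95% interval -0.25 to 0.16, adjusted p = 0.702). Its partner KIF3B measured 27.4 and 26.7 FPKM against 25.5 and 26.6 FPKM, a log2 fold change of -0.05 (95% interval -0.18 to 0.07, adjusted p = 0.432). KIF3C, the alternative partner of KIF3A, rose. It had 11.3 and 11.5 FPKM in vehicle and 14.9 and 14.6 FPKM in MGH-CP1, a log2 fold change of 0.35 (SE 0.06, adjusted p = 0.00201). KIF17, a dendritic motor, did not pass the filter and ranged from 0.0717 to 0.227 FPKM.

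Kinesin-3 motors carry synaptic vesicle precursors, mitochondria and endosomes. KIF1C, which moves dense-core vesicles and integrin cargo, fell from 36.6 and 38.2 FPKM to 30.5 and 30.02 FPKM, a log2 fold change of -0.30 (SE 0.05, adjusted p = 0.00209). KIF13B, a motor of membrane cargo, rose from 4.54 and 4.44 FPKM to 6.04 and 5.59 FPKM, a log2 fold change of 0.31 (SE 0.08, adjusted p = 0.0129). Without MGH-CP1 replicate 1 this value was 0.26, with an adjusted p of 0.0767. KIF1B, a carrier of mitochondria and vesicles, went from 11.8 and 11.6 FPKM to 9.72 and 10.2 FPKM, and its log2 fold change of -0.21 had an adjusted p of 0.026. That call depended on all 4 libraries, since leaving out any single one gave -0.24 to -0.18 with adjusted p from 0.0512 to 0.125. KIF13A had 21.3 and 20.3 FPKM against 19.1 and 19.3 FPKM and was not called (log2 fold change -0.11, 95% interval -0.24 to 0.02, adjusted p = 0.139). The endosomal motor KIF16B, at 1.85 and 2.10 FPKM against 2.43 and 2.0 FPKM, was not called either (0.11, 95% interval -0.16 to 0.38, adjusted p = 0.459). KIF1A, the neuronal member, had at most 1 fragment in a library.

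The C-terminal motors outside mitosis gave the largest rise of the family. KIFC2 measured 5.54 and 6.35 FPKM in vehicle and 12.9 and 13.1 FPKM in MGH-CP1. Both treated libraries were above both controls by far more than the replicates differed. Its log2 fold change was 1.01 (SE 0.08, 95% interval 0.83 to 1.19, adjusted p = 5.11e-05, limma), a ratio of 2.18, and 196 of the genes tested had a higher value. KIFC2 overlaps FOXH1 on the other strand, which had 0 to 13 fragments in a library beside 514 to 848 for KIFC2. KIFC3, a minus-end motor of cell junctions and the Golgi, read 58.5 and 61.2 FPKM against 56.3 and 60.8 FPKM, and its log2 fold change of -0.03 (95% interval -0.16 to 0.10, adjusted p = 0.677) was not called.

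Of the 12 other kinesins 5 passed the filter, with 2 lower and 1 higher. Of all genes tested, 23.8% were called lower and 27.1% higher, and 5 genes are too few to be set apart from these shares. KIF24, which restrains the growth of cilia at the mother centriole, read 4.56 and 4.04 FPKM in vehicle and 2.34 and 2.67 FPKM in MGH-CP1, a log2 fold change of -0.60 (SE 0.10, adjusted p = 0.00175). KIF21A, which slows microtubule growth at the cell cortex, went from 3.03 and 2.94 FPKM to 2.33 and 1.96 FPKM, a log2 fold change of -0.34 (SE 0.10, adjusted p = 0.0257). KIF7, a regulator of Hedgehog signalling at the ciliary tip, went from 1.32 and 1.51 FPKM to 2.38 and 1.91 FPKM, a log2 fold change of 0.38 (SE 0.12, adjusted p = 0.0321).

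The calls of KIF21A and KIF7 were each lost in several of the fits that left out a library. Their log2 fold changes kept direction in these fits, at -0.4288 to -0.2578 for KIF21A and 0.2719 to 0.4870 for KIF7. For KIF21A the adjusted p was 0.113 without MGH-CP1 replicate 2, 0.111 without vehicle replicate 1 and 0.074 without vehicle replicate 2. For KIF7 it was 0.155 without MGH-CP1 replicate 1, 0.146 without vehicle replicate 1 and 0.0556 without vehicle replicate 2. KIF7 also overlaps TICRR on the other strand over 22268 bases, and TICRR had 327 to 775 fragments in a library beside 153 to 195 for KIF7. KIF9 (0.901 and 1.16 FPKM against 1.11 and 1.42 FPKM) and KIF27 (1.86 and 1.83 FPKM against 1.89 and 1.94 FPKM), motors linked to cilia, were not called, with adjusted p of 0.363 and 0.793.

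In all, 29 of the 42 kinesins were tested, of which 18 were lower, 4 higher and 7 not called. The shares over all genes tested were 23.8% lower and 27.1% higher. The 13 others were below the filter, namely 2 mitotic, 4 transport and 7 other kinesins, and none exceeded 0.670 FPKM. Just inside the filter was KIF9, at a mean of 1.15 FPKM over the 4 libraries, and just outside it was KIF25, at a mean of 0.544 FPKM. KIF26B ranged from 0.324 to 0.437 FPKM, KIF21B from 0.112 to 0.167 FPKM, and KIF12 and KIF6 had at most 4 fragments and 1 fragment in a library. KIF2B, KIF4B, KIF19 and KIF26A had 0 fragments throughout. A count of 0 allows up to 3 fragments, or 0.0175 to 0.0731 FPKM for these genes, which covers counting error only.

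Ordered by vehicle level, KIF5B (95.7 ± 3.93 FPKM, SD, n = 2) came first, followed by KIFC1 (80.9 ± 3.55), KIFC3 (59.8 ± 1.94), KIF20A (57.0 ± 1.79), KIF2C (54.5 ± 0.776), KIF11 (51.9 ± 2.40) and KIF23 (44.3 ± 2.74). Neighbours among these 7 had no overlapping libraries, and 7 of the first 10 were mitotic. After MGH-CP1, KIFC3 and KIFC1 exchanged places 2 and 3, and KIF23 dropped from place 7 to place 10. Lower in the order, KIFC2 rose from place 21 to place 17.

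The balance of the family shifted. Summed FPKM of the mitotic kinesins were 502 and 487 in vehicle and 273 and 296 in MGH-CP1, a ratio of means of 0.575. Those of the transport kinesins were 284 and 281 against 249 and 255, a ratio of 0.892. Both sums were lower in both treated libraries, and the mitotic drop was much the larger.

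The ratio of mitotic to transport sums, in which the scaling of a library cancels, was 1.77 and 1.73 in vehicle and 1.09 and 1.16 in MGH-CP1. The mitotic share of all kinesin FPKM was 62.6% ± 0.369 (SD, n = 2) in vehicle and 51.9% ± 1.06 (SD, n = 2) in MGH-CP1. The transport sum averaged 282 FPKM in vehicle and 252 FPKM in MGH-CP1, while KIF5B alone went from 95.7 to 66.3 FPKM. Its share of that sum was 34.7% and 33.1% in vehicle and 26.3% in both MGH-CP1 libraries. The other kinesins summed to 12.6 and 12.4 FPKM against 11.3 and 11.2 FPKM.

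**Figure D4:**
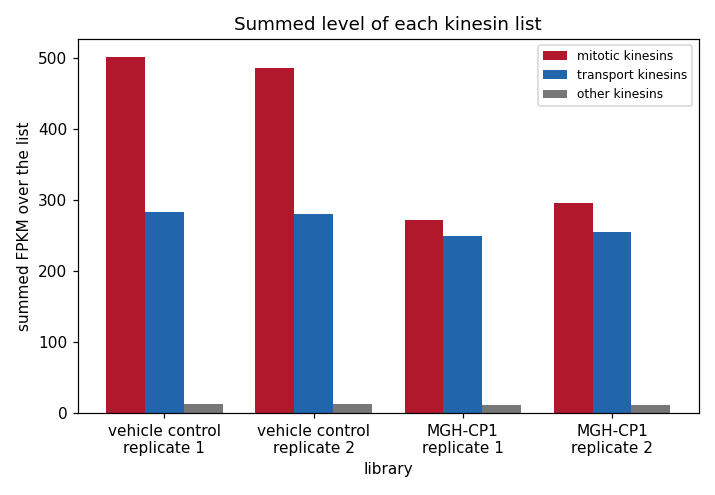
Summed FPKM of the mitotic (red), transport (blue) and other (grey) kinesins in each of the 4 libraries, 1 bar per list and library on an axis from 0. The red bars drop from 502 and 487 to 273 and 296, so that they stand only slightly above the blue bars, which go from 284 and 281 to 249 and 255.

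The proteins that work with the motors were counted in the same way, from lists made by role. Of 16 listed partners of mitotic kinesins, all 16 were tested, and 15 were lower and 1 was higher. The all-gene shares were 23.8% lower and 27.1% higher. The median log2 fold change of these partners was -0.73. The largest changes were those of the kinetochore motor CENPE (22.9 and 19.9 FPKM against 10.6 and 10.6 FPKM, log2 fold change -0.94), of TPX2, which nucleates spindle microtubules and targets aurora A (163 and 158 FPKM against 80.0 and 86.8 FPKM, -0.94), and of the mitotic kinase PLK1 (43.3 and 43.7 FPKM against 21.8 and 23.7 FPKM, -0.91). The partner that rose was NUMA1, which anchors dynein at spindle poles and resides in the interphase nucleus, at 27.1 and 28.3 FPKM against 37.2 and 37.2 FPKM (log2 fold change 0.41, adjusted p = 4.18e-04, limma). PRC1 and RACGAP1, which work with KIF4A and KIF23 in the central spindle, changed by -0.77 and -0.76 on the log2 scale.

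Of 17 listed partners of transport kinesins 16 were tested, with 1 lower, 4 higher and 11 not called, and a median log2 fold change of 0.08. These shares are read beside the 23.8% lower and 27.1% higher of all genes tested, and the share of higher partners was near that background. MAPK8IP3, the JIP3 adaptor that links kinesin-1 and dynein to lysosomes and axonal cargo, read 7.20 and 8.72 FPKM in vehicle and 28.7 and 25.8 FPKM in MGH-CP1. The groups were far apart, and its log2 fold change was 1.66 (SE 0.09, adjusted p = 1.91e-05). The light chain KLC4 went from 7.24 and 7.83 FPKM to 15.3 and 13.9 FPKM (0.87, adjusted p = 7.69e-05). Also higher was RHOT2, a mitochondrial adaptor (0.44), and TRAK2, another one, was lower (-0.34). The light chains KLC1, KLC2 and KLC3 were not called, at -0.10, -0.15 and -0.33 (limma adjusted p 0.387, 0.0515 and 0.0533). KLC2 and KLC3 were thus just outside the threshold, and in both the MGH-CP1 libraries lay below the vehicle libraries. The heavy chain KIF5B was lower, and the difference between light and heavy chains was not tested.

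Cytoplasmic dynein and its activator dynactin, the main minus-end transport machinery, had 21 of 23 listed genes tested, with 2 lower, 7 higher and 12 not called, and a median log2 fold change of 0.09. The share of higher genes was again not far from the 27.1% of all genes tested, and the share of lower genes was under the 23.8%. The heavy chain DYNC1H1 fell from 61.3 and 62.0 FPKM to 39.9 and 45.7 FPKM (-0.52, adjusted p = 4.84e-04). The light chains DYNLT1 and DYNLT3 rose, by 0.38 and 0.37 on the log2 scale. The heavy chains of both main transport motors, DYNC1H1 and KIF5B, thus had the same log2 fold change of -0.52.

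**Figure D5:**
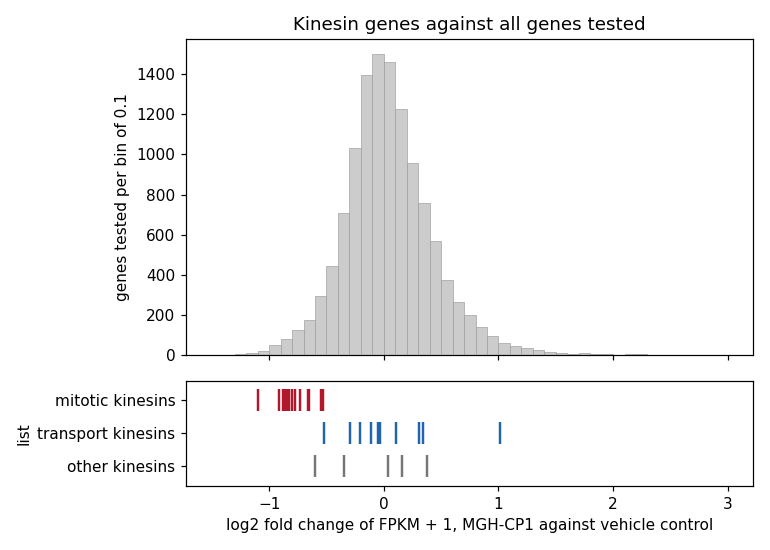
Upper panel, the number of genes per bin of 0.1 in log2 fold change of FPKM + 1, MGH-CP1 against vehicle control, for the 12080 genes tested. Lower panel, 1 tick per tested kinesin on the same axis, by list, showing the 13 mitotic kinesins between -1.10 and -0.53 and the transport kinesins spread from -0.52 (KIF5B) to 1.01 (KIFC2), with a median of -0.04.

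Markers of dividing cells moved with the mitotic kinesins. All 8 of 8 were lower, beside 23.8% of all genes tested. Their median log2 fold change was -0.83, beside -0.80 for the mitotic kinesins. Their summed level was 802 and 790 FPKM in vehicle and 422 and 452 FPKM in MGH-CP1. The largest were MKI67 (-1.28), CCNA2 (-1.06) and TOP2A (-0.98). The share of dividing cells was not measured in these libraries, and its part in the fall of the mitotic kinesins was not tested.

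Defining markers of the line were present. VIM, CD44, AXL and MSN summed to 1101 and 1097 FPKM in vehicle and 969 and 999 FPKM in MGH-CP1, with AXL lower (-0.76, adjusted p = 4.25e-04). Of ESR1, PGR, EPCAM and CDH1, listed as markers that the line has at low level or lacks, 1 of 4 (EPCAM) reached 1 FPKM. EPCAM was well above that level, at 12.4 and 13.9 FPKM in vehicle and 16.4 and 13.5 FPKM in MGH-CP1, against the listed expectation. Leukocyte markers summed to at most 0.0431 FPKM, with 2 of 4 at 0 in every library, and 3 fibroblast markers summed to 2.66 to 3.49 FPKM. Of the fibroblast markers, COL1A1 (1.31 to 1.83 FPKM) and PDGFRB (1.24 to 1.67 FPKM) passed the filter and were not called. The listed endothelial marker PECAM1 was not among the deposited genes under that symbol.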

How the data were processed

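RNA-seq was analysed from 4 libraries of MDA-MB-231 cells, 2 of MGH-CP1 (10 µM in the labels, 24 h) and 2 of vehicle control, grouped by their labels. FPKM of 48162 genes were deposited by the authors, with coordinates and a fixed gene length. The submitters' processing notes name CASAVA 1.8, STAR and hg19; the counting tool and strand setting are not given in the sources used here. FPKM times length gave whole fragments for all values (tolerance 0.01), which were used for depth and for a voom alternative.

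On log2(FPKM + 1), the 12080 genes averaging 1 FPKM or more were fitted two-sided with limma 3.58.1 in R 4.3.3 (lmFit, eBayes with trend; prior df 5.97). P-values were adjusted by Benjamini-Hochberg across these genes, and 0.05 was the threshold. The procedure was tested on simulated data in which far fewer genes changed than were called here. That test does not measure the error rate in these libraries. Intervals are 95%. Every kinesin past the filter is named, and the others with their range. Of the partner, dynein and dividing-cell lists, the 3 called members with the largest change are named, apart from 1 transport partner that is not reported here; NUMA1, PRC1, RACGAP1, RHOT2, TRAK2, KLC1, KLC2 and KLC3 and the transcription factors of the closing observations were chosen after their values were seen. Members and lists were chosen with earlier results of these data known, and the promoter motifs were searched after the values were seen. Replicates were checked for pairing by number. Alternatives were another pseudocount, other filters, other scalings, voom, a fit without trend, a replicate block and leaving out each library.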

Additional observations from a re-analysis of the deposited data

How the results depend on the processing

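The 13 mitotic kinesins tested, and KIF5B, KIF1C, KIF3C, KIFC2 and KIF24, kept their direction and their call under each of the 13 alternatives in which they were tested. Of 371 values for 29 genes, 348 kept direction and side of the threshold, 16 lost their call and 7 changed sign. Calls were lost for KIF1B, KIF13B, KIF7 and KIF21A, with no filter on low values (adjusted p 0.058, 0.0581, 0.139 and 0.115), for KIF7 with quantile normalization (0.147), and on leaving out single libraries. The sign changes were in genes with no call: KIF3A (0.0135 without MGH-CP1 replicate 2, 0.0323 without vehicle replicate 1, within a range of -0.1192 to 0.0323 over the libraries left out), KIFC3 (0.0244 without MGH-CP1 replicate 1, 0.0024 without vehicle replicate 2, range -0.0846 to 0.0244) and, with quantile normalization, KIF16B (-0.0045), KIF9 (-0.0124) and KIF27 (-0.0874). The cause was not tested. Leaving out each library gave medians of -0.87 to -0.72 for the mitotic and -0.0833 to -0.0240 for the transport kinesins, and 1 to 2 calls among the other kinesins. Without MGH-CP1 replicate 1 the mitotic median was -0.72, and without MGH-CP1 replicate 2 and vehicle replicate 2 the transport median was -0.0833 and -0.0698. The other kinesins had 3 calls, 1 with no filter and 0 at a mean FPKM of at least 5, where none was tested. Over all genes, 2869 were lower and 3273 higher, beside 1844 and 2280 of 24878 with no filter. The median of all genes tested stayed between -0.03 and 0.03 under the scalings. The same-numbered replicates did not pair (correlation of their deviations 0.0777 over 12080 genes). With the replicate number as a block, 13 mitotic kinesins were lower, 0 were higher, 3 transport kinesins were lower and 3 higher, as without it, and all-gene calls were 3052 lower and 3466 higher. With 2 libraries per group, and 67 fragments in the least covered value of a tested kinesin, small changes of the low-level genes KIF7, KIF9, KIF16B and KIF27 could not be resolved.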

Other observations

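Regulators of late cell-cycle transcription that act through the CHR were also measured, as a set of genes chosen after the data were seen. FOXM1, a transcription factor of G2 and M genes, read 57.3 and 55.3 FPKM in vehicle and 30.1 and 31.4 FPKM in MGH-CP1, a log2 fold change of -0.85 (adjusted p = 2.46e-05, limma). MYBL2, the activating partner of MuvB, read 58.6 and 59.2 FPKM against 31.6 and 38.1 FPKM, a log2 fold change of -0.75 (adjusted p = 2.14e-04). Of the MuvB core, LIN9 (-0.69), LIN54 (-0.55), LIN52 (-0.42) and RBBP4 (-0.16) were lower, and LIN37 was below the filter at 4 to 10 fragments in a library. Of the pocket proteins, which repress such genes with MuvB, RBL1 was lower (-0.63, adjusted p = 2.27e-04), and RBL2 was higher, at 7.91 and 7.23 FPKM against 9.16 and 9.06 FPKM (0.24, adjusted p = 0.0246). E2F4, measured with this set, was lower, at 28.5 and 28.6 FPKM against 23.7 and 24.1 FPKM (-0.25, adjusted p = 0.00487, limma). The groups did not overlap in any of these genes, of which LIN37 was not tested. Over all genes tested, 37.4% had both MGH-CP1 libraries below both vehicle libraries and 39.8% had them above. The shares called were 23.8% lower and 27.1% higher. A second entry of RBL1, with at most 1 fragment in a library, was below the filter, and its groups overlapped.

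Some kinesin-related genes outside the symbol choice were also measured, beside CENPE, which is given above with the mitotic partners. STARD9, a motor of the spindle poles, was at 1.49 and 1.27 FPKM in vehicle and 1.58 and 1.47 FPKM in MGH-CP1 and was not called (log2 fold change 0.09, adjusted p = 0.562). The KIF1-binding protein KIAA1279 went from 44.4 and 42.9 FPKM to 36.8 and 37.3 FPKM (-0.23, adjusted p = 0.00581). The pseudogene KIF4CP had 0 fragments in every library.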
